A study of Mus musculus with 14 samples.

Results

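Interferon-induced genes are transcribed more strongly when a cell answers interferon, the signal protein released on infection. A set of 47 such genes was chosen by symbol, and a probe of the array named 41 of them, out of 13923 genes that a probe of 1 gene names. Bst2, Oas2, Irf9, Gbp2, Ifi44 and Xaf1 had no probe under these symbols and were not analysed here. Where several probes named a gene (Eif2ak2, Oas3 and Parp14), the probe with the highest mean over all 14 arrays stood for it. The lungs came from 4 groups of adult mice of C57/BL6 background, matched for age and sex. These were jnk1-/- mice ventilated at a tidal volume of 10 ml/kg for 8 hours (4 arrays), unventilated jnk1-/- controls (3 arrays), wild-type mice ventilated in the same way (4 arrays) and unventilated wild-type controls (3 arrays). The jnk1-/- mice lack the stress-activated kinase JNK1 in the whole body, came from another laboratory's colony and had gray coats, whereas wild-type mice were black. All mice received ketamine and acepromazine, but the controls were killed directly after anesthesia. Ventilated mice also received the muscle relaxant pancuronium and a recruiting inflation of the lungs every hour. Ventilation cannot be told apart from these or from the hours under anesthesia. RNA of unsorted tissue of the right lung was hybridized to CodeLink UniSet slides read in a single colour. Each array held the RNA of a single mouse.

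Type I interferons act through their receptor on a complex that holds STAT2 and IRF9 and binds the interferon-stimulated response element in the promoters of their target genes. Interferon gamma, made mainly by T and NK cells, acts through its own receptor and the gamma-activated sequence in promoters. The induced genes encode sensors of viral nucleic acid, enzymes that block viral replication, GTPases that attack intracellular pathogens, chemokines that draw T cells, and the machinery that loads peptides for T cells. In the lung they are best known from the defence against respiratory viruses.

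RefSeq promoter windows of the GRCm38.p6 assembly, reaching from 250 bases before to 50 bases after each gene start, were at hand for 30 of the 41 measured genes. The core of the response element was searched as GAAANNGAAA and its reverse complement TTTCNNTTTC, and the gamma-activated sequence as TTCNNNGAA, which reads the same on both strands. A gene counted when any of its windows held the letters. The core was found for 16 of these 30 genes (53.3%), against 3.99% of all 27025 genes with a window. The gamma-activated sequence was found for 9 of the 30, against 9.55% of all. Of the 6 genes with a window that passed the test in a ventilation comparison, Stat2, which rose, and Ifit3, which fell, were the ones whose window held the core, so their windows are shown. Capitals mark the cores, which here read as the reverse complement. Stat2 lies at chr10:128270248-128270547 (plus strand), with its core 222 to 213 bases before the start. Ifit3 lies at chr19:34583279-34583578 (plus strand), with cores 156 to 147 and 122 to 113 bases before the start.
Stat2: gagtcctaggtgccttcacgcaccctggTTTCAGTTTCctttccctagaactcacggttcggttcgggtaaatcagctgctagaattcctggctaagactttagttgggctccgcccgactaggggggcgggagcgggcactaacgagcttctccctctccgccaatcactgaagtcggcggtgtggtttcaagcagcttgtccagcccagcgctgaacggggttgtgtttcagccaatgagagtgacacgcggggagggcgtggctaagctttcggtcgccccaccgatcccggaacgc
Ifit3: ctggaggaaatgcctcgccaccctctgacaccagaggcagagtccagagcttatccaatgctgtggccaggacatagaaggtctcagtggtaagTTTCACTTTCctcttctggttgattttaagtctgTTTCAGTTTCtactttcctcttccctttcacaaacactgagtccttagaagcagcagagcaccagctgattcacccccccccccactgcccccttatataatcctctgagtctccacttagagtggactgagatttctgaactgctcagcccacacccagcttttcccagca
The windows of Slfn1, Slfn4, Ifi47 and Cxcl9, which also passed the test, held neither run of letters. A match is a run of letters and no measured site.

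Levels are given as normalized log2 intensity, on which a step of 1 is a 2-fold difference, and levels of different probes are not comparable. Differences between the 4 groups came from a single limma model, p-values were adjusted by Benjamini and Hochberg across the 19621 probes of the array, and a gene passed at an adjusted p under 0.05. The authors' own normalized table lifts low values to 1 shared lowest value, 3.12 on the log2 scale, which holds 24.5% of its entries. On this measure 29 of the 41 genes were never at the lowest value, 7 were there on 1 to 7 arrays, and Cxcl11, Dhx58, Mx1, Oas1a and Rsad2 were there on more than 7. For these 5 genes no fold change is given.

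Across the series, arrays had deposited medians of 4.98 to 6.37, which normalization brought to 5.74 to 5.87. Replicates 2 and 3 of the wild-type controls had 10.7% and 6.98% of probes at the lowest deposited value, and the other arrays had 1.86% to 4.52%. Replicates 2 and 3 of the wild-type controls and replicates 1 and 2 of the jnk1-/- controls lay closer to each other than any other pair of their groups over probes above the authors' lowest value (SD of the log2 difference 0.435 and 0.368). Results with each of these 2 pairs averaged are in the closing section. This closeness depended on the probes used. Over all probes the jnk1-/- pair was still the closest of its group (0.939), but the wild-type pair was the most distant (1.44). Over the 41 genes the closest control pairs were wild-type replicates 1 and 3 (0.994) and jnk1-/- replicates 2 and 3 (0.597). Ventilated wild-type replicates 2 and 4 had 0.441 above the authors' lowest value and were not averaged. The probe of Mapk8, the gene of JNK1, was at the authors' lowest value on 3 of 4 ventilated and 3 of 3 control jnk1-/- arrays and on 2 of 4 ventilated and 1 of 3 control wild-type arrays. The part of Mapk8 that it reads is not known here, so it checks the genotype little. Of 9 lung epithelial markers measured, none lay at that value on all arrays of a group, and 1 fell in jnk1-/- lungs. The log2 of their summed intensities was 15.20 to 16.08 on all arrays. Of the 41 interferon-induced genes, 27 were highest within their group on jnk1-/- control replicate 1 (65.9%, against 32.8% of all genes). On jnk1-/- control replicate 3, 6 were highest (14.6%, against 36.7% of all genes). On ventilated jnk1-/- replicate 3, 3 of the 41 genes were highest in their group (7.32%, against 30.3% of all genes). Without that array 8 genes passed after ventilation in jnk1-/- lungs, against 7 with it. Calls that rest on replicate 1 are given with and without it below.

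Markers of other cell types moved with the groups. Of 12 neutrophil genes, 4 rose and 1 fell after ventilation in jnk1-/- lungs and 5 rose in wild-type lungs. The log2 of their summed intensities was 13.29 to 14.89 on ventilated and 10.95 to 11.17 on control jnk1-/- arrays. On wild-type arrays it was 14.09 to 14.80 on ventilated and 11.54 to 12.19 on control arrays. The brightest probes weigh most in such a sum, so the ranges here need not follow most genes of a list. Mpo and Elane stayed at the authors' lowest value on all jnk1-/- arrays. Among 15 genes of T and NK cells, 5 fell and 0 rose in jnk1-/- lungs (9.64 to 10.49 after ventilation, 11.03 to 11.15 in controls), and 0 fell and 1 rose in wild-type lungs (9.66 to 10.35 after ventilation, 10.36 to 10.73 in controls). Cd3e was at the lowest value in 3 of the 4 groups. Of 11 B cell genes, 5 fell in jnk1-/- lungs (9.49 to 10.05, against 11.19 to 12.31 in controls) and 3 in wild-type lungs (9.70 to 9.84, against 10.34 to 11.28). The median log2 change of the 11 genes was −0.95 in jnk1-/- lungs and −0.19 in wild-type lungs. Skeletal muscle genes were high in the jnk1-/- controls alone. The log2 of their summed intensities was 8.22 to 8.59 on ventilated and 13.13 to 13.66 on control jnk1-/- arrays, and 8.4 to 9.13 on ventilated and 8.69 to 8.99 on control wild-type arrays. Of these 13 genes, 12 fell after ventilation in jnk1-/- lungs and 11 were higher in jnk1-/- than in wild-type controls. Stratified squamous epithelium genes had 9.83 to 10.22 on ventilated and 12.44 to 13.37 on control jnk1-/- arrays, and 9.51 to 9.97 on ventilated and 9.59 to 9.91 on control wild-type arrays, with 9 of 12 lower after ventilation in jnk1-/- lungs and 8 higher in jnk1-/- controls. All 3 jnk1-/- controls carried both signals, so no comparison with these controls could be made without them. Of 9 macrophage and monocyte genes 1 fell in jnk1-/- and 0 in wild-type lungs, and of 5 plasmacytoid dendritic cell genes, which include Irf8, 1 fell in each. In RNA of unsorted lung tissue, fewer cells of a type and less RNA per cell cannot be told apart. The part of any of these markers in the results below was not tested.

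The question of the ventilation comparisons was which of these genes differ in level between ventilated and control lungs of each genotype. Of the 41 genes, 9 passed the test in at least 1 comparison and 32 in none. After ventilation 4 genes were higher in jnk1-/- lungs (Slfn1, Slfn4, Stat2 and Parp14), 9.76% of the 41 against 7.21% of all 13923 genes. A fall was found for 3 (Cxcl9, Usp18 and Zbp1), 7.32% against 6.02%. In wild-type lungs 2 genes rose (Slfn1 and Slfn4, 4.88% against 2.41%) and 2 fell (Ifit3 and Ifi47, 4.88% against 1.46%). Each of these shares rests on 2 to 4 genes. With Welch's t-test, the test of the study's methods, only the call of Slfn1 in jnk1-/- lungs was kept. In the authors' normalized values, 4 genes rose and 7 fell in jnk1-/- lungs, where 8.35% of all genes rose and 8.51% fell. In the same values 2 rose and 3 fell in wild-type lungs, where 3.23% of all genes rose and 3.57% fell.

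Without a threshold, the 41 genes had a median change of −0.21 in jnk1-/- lungs, against −0.06 for all genes, and of −0.19 in wild-type lungs, against 0.08. Between arrays of a group the median level of the 41 genes, relative to each gene's mean, varied with an SD of 0.175. The medians were not tested. All 4 ventilated arrays lay below all 3 controls for 8 genes in jnk1-/- lungs (19.5%, against 12.6% of all genes) and for 10 genes in wild-type lungs (24.4%, against 11.1%). They lay above for 4 genes in jnk1-/- lungs (9.76%, against 13.3%) and for 3 in wild-type lungs (7.32%, against 12.9%). Cxcl9, Ifi47 and Ifit3 lay below in both genotypes, and Slfn1 and Slfn4 above in both. The plot of all 41 genes on the 14 arrays shows these values by role.

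**Figure D1:**
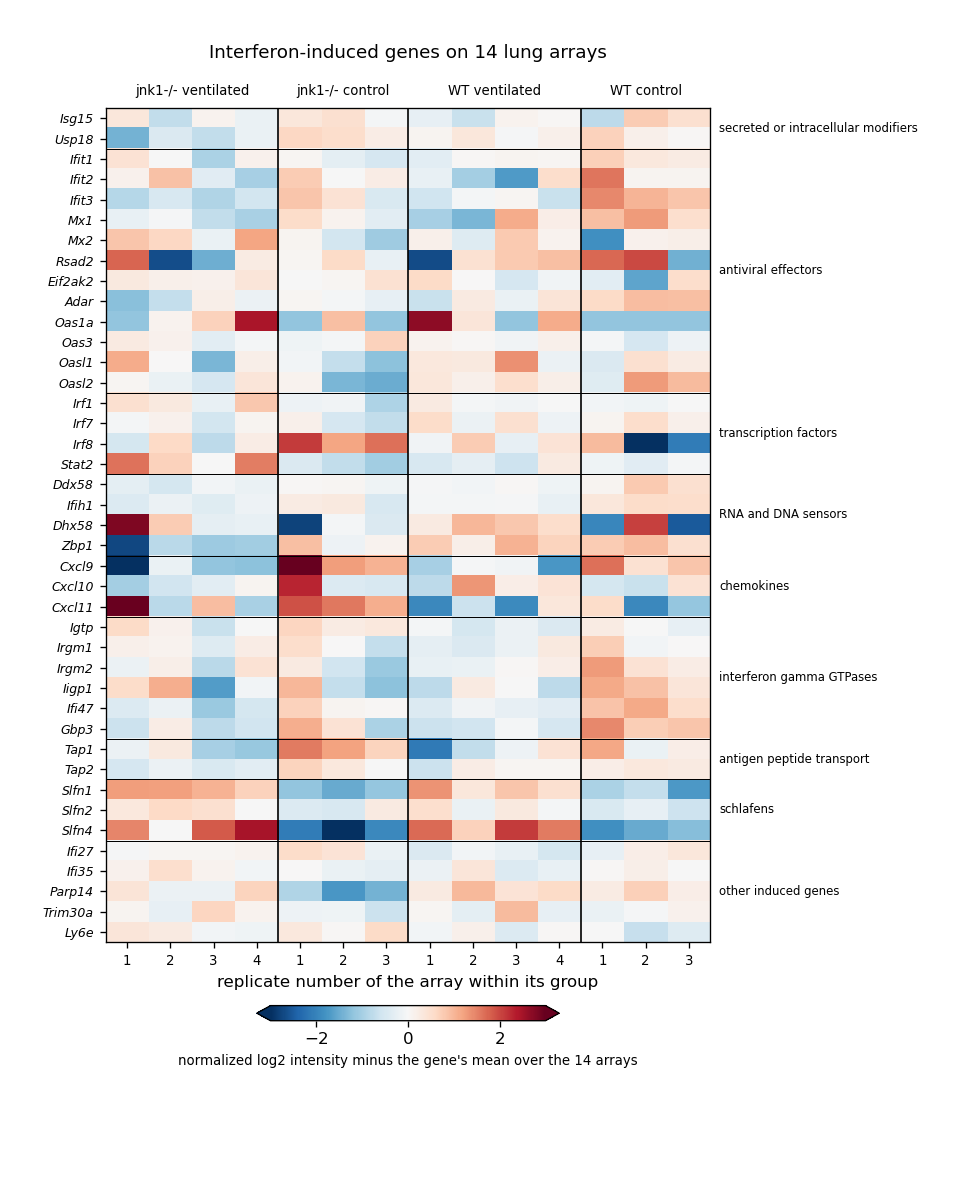
Normalized log2 intensity of the 41 measured interferon-induced genes (rows, grouped by role) on the 14 arrays (columns), as the difference from each gene's mean over the 14 arrays. Slfn1 and Slfn4 are above their mean on the ventilated arrays of both genotypes and below it on the controls, except that Slfn4 sits near its mean on ventilated jnk1-/- replicate 2. Colours end at 3 log2 units on either side.

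The schlafens are a family of growth-regulating genes of lymphoid and myeloid cells, induced by type I interferon, whose mouse members Slfn2, Slfn1 and Slfn4 lie next to each other on chromosome 11. Slfn1 had 8.64, 8.61, 8.41 and 8.06 on the ventilated jnk1-/- arrays, against 6.19, 5.86 and 6.22 on the jnk1-/- controls. It had 8.72, 7.71, 8.21 and 7.85 on the ventilated wild-type arrays, against 6.43, 6.67 and 5.65 on the wild-type controls. Every ventilated lung was thus above every control lung. The rise was 5.06-fold in jnk1-/- lungs (log2 change 2.34, standard error 0.29, adjusted p = 0.000772 from limma) and 3.67-fold in wild-type lungs (1.88, standard error 0.29, adjusted p = 0.00633). The study itself listed Slfn1 from these same arrays, so its call is no independent evidence.

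Slfn4, known from macrophages and other myeloid cells, had 5.92, 4.44, 6.29 and 6.94 in ventilated jnk1-/- lungs, against 2.37, 1.28 and 2.53 in jnk1-/- controls. In ventilated wild-type lungs it had 6.17, 5.16, 6.56 and 6.02, against 2.62, 2.95 and 3.18 in wild-type controls. The groups lay at least 1 log2 unit apart in both genotypes. All 6 control arrays were at the authors' lowest value, so the rise has only a lower bound, taken from that table. It was at least 5.82-fold in jnk1-/- lungs (adjusted p = 0.00135 from limma on the normalized arrays) and at least 5.93-fold in wild-type lungs (adjusted p = 0.0104). Slfn2 did not pass the test, with a log2 change of 0.56 in jnk1-/- lungs (standard error 0.24, adjusted p = 0.166) and 0.57 in wild-type lungs (standard error 0.24, adjusted p = 0.215). Neutrophil markers rose in the same lungs, as given above. With the methods' t-test Slfn4 passed in neither genotype, and Slfn1 did not pass in wild-type lungs. Nor did Slfn1 pass there with only the arrays compared in the fit. Slfn1 and Slfn4 passed without any 1 array, but in wild-type lungs neither passed without control replicates 2 and 3 together, an alternative chosen after the data were seen (adjusted p = 0.104 and 0.129).

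**Figure D2:**
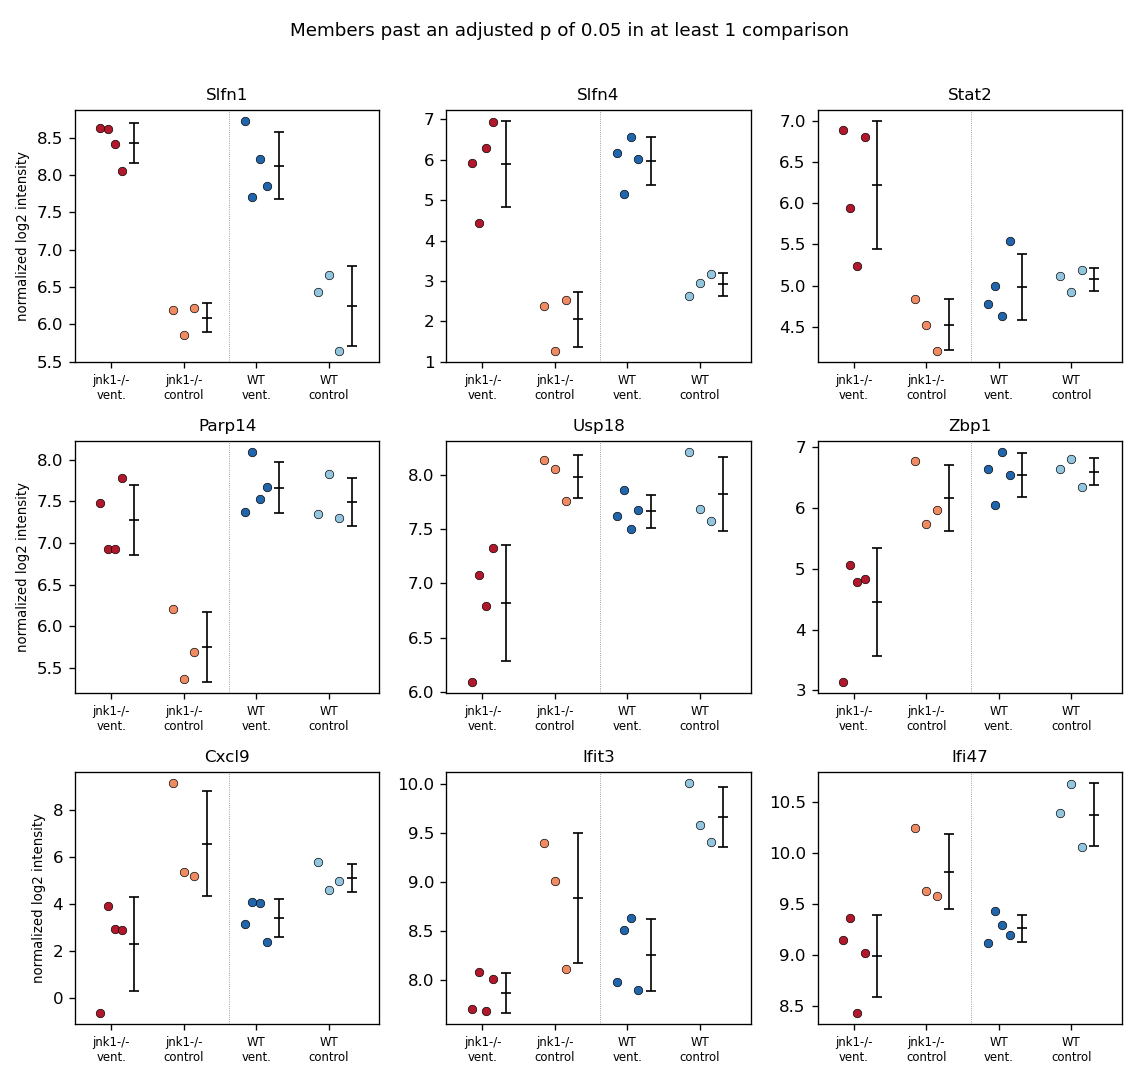
Normalized log2 intensity of the 9 genes that passed the test in at least 1 comparison, for each array of the 4 groups (points), with the mean and SD of each group (bars beside the points). Slfn1 and Slfn4 were higher in ventilated lungs of both genotypes. Stat2 and Parp14 were higher and Usp18 and Zbp1 lower in ventilated jnk1-/- lungs than in their controls.

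Of the transcription factors that carry the interferon signal, Stat2, the partner of IRF9 on the response element, rose in jnk1-/- lungs. Its levels were 6.89, 5.94, 5.24 and 6.80 on the ventilated arrays, against 4.83, 4.53 and 4.21 on the controls, without overlap. This was a 3.24-fold rise (log2 change 1.69, standard error 0.37, adjusted p = 0.0131 from limma). In wild-type lungs Stat2 had 4.77, 4.99, 4.63 and 5.54 after ventilation, against 5.12, 4.92 and 5.19 in controls, so that these groups overlapped (log2 change −0.09, standard error 0.37, adjusted p = 0.920). Stat2 passed without any 1 array, and its adjusted p was 0.0504 with the pairs of control arrays named above averaged. It did not pass with the methods' t-test or with only the arrays compared in the fit.

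Irf1, an activator of interferon genes, had a log2 change of 0.73 in jnk1-/- lungs (standard error 0.26, adjusted p = 0.0884) and 0.10 in wild-type lungs (standard error 0.26, adjusted p = 0.877). Irf7, the main activator of interferon alpha genes, had changes of 0.27 (standard error 0.28, adjusted p = 0.604) and −0.08 (standard error 0.28, adjusted p = 0.913). Neither passed. Irf8, a factor of macrophage and dendritic cell development, had 2.91, 4.02, 2.64 and 3.67 on the ventilated jnk1-/- arrays, against 5.53, 4.62 and 5.09 on their controls. It had 3.33, 4.19, 3.19 and 3.84 on the ventilated wild-type arrays, against 4.39, −0.65 and 1.35 on their controls. The wild-type controls thus spanned most of the range of the gene, and 2 of these 3 arrays were at the authors' lowest value. The changes, −1.77 (standard error 0.87, adjusted p = 0.222) in jnk1-/- lungs and 1.94 (standard error 0.87, adjusted p = 0.241) in wild-type lungs, did not pass. In the authors' values Irf8 fell in jnk1-/- lungs (−1.33, adjusted p = 0.0373), and the change in wild-type lungs was −0.000917.

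Isg15 encodes a ubiquitin-like protein that is joined to other proteins in the interferon response, and Usp18 the enzyme that removes it and damps the type I receptor. Usp18 had 6.10, 7.08, 6.79 and 7.33 in ventilated jnk1-/- lungs, against 8.13, 8.05 and 7.76 in jnk1-/- controls. It fell 2.23-fold (log2 change −1.16, standard error 0.27, adjusted p = 0.0181), and did not pass without control replicate 1 (adjusted p = 0.0674) or 2 (adjusted p = 0.0601). In wild-type lungs Usp18 had 7.62, 7.86, 7.5 and 7.68 after ventilation, against 8.20, 7.69 and 7.57 in controls (log2 change −0.16, standard error 0.27, adjusted p = 0.802). The wild-type groups overlapped. Isg15 overlapped in both genotypes, with 4.70 to 5.77 on ventilated and 5.38 to 5.92 on control jnk1-/- arrays, and 4.78 to 5.55 on ventilated and 4.66 to 6.20 on control wild-type arrays.

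Among 12 measured antiviral effectors, 1 passed the test. Ifit3, of the family that binds foreign RNA ends, had 7.97, 8.50, 8.63 and 7.89 in ventilated wild-type lungs, against 10.00, 9.58 and 9.40 in wild-type controls. It fell 2.65-fold (log2 change −1.41, standard error 0.30, adjusted p = 0.0288). In jnk1-/- lungs it had 7.70, 8.08, 7.67 and 8.01 after ventilation, against 9.39, 9.0 and 8.10 in controls, also without overlap (log2 change −0.97, standard error 0.30, adjusted p = 0.0595). The wild-type call was lost without control replicate 1, 2 or 3 or ventilated replicate 1 or 4, at log2 changes of −1.54 to −1.24 and adjusted p-values of up to 0.0811. Mice have a closely similar neighbouring copy of Ifit3, and whether the probe reads both was not tested.

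The other antiviral effectors did not pass. Ifit1, of the same family, had a log2 change of 0.14 in jnk1-/- lungs (standard error 0.29, adjusted p = 0.826) and −0.46 in wild-type lungs (standard error 0.29, adjusted p = 0.424), where all ventilated arrays (6.75 to 7.15) were below all controls (7.31 to 7.77). The RNA-editing enzyme Adar also lay below its controls in wild-type lungs (4.46 to 5.53, against 5.71 to 6.06), with a change of −0.86 (standard error 0.34, adjusted p = 0.180). The dynamin-like Mx2 had a change of 1.12 in jnk1-/- lungs (standard error 0.51, adjusted p = 0.185) and 0.67 in wild-type lungs (standard error 0.51, adjusted p = 0.514). The oligoadenylate synthase family, which makes the second messenger of RNase L, did not pass either. Oas3, Oasl1 and Oasl2 had changes of −0.16, 0.66 and 0.85 in jnk1-/- lungs and of 0.29, 0.35 and −0.32 in wild-type lungs. Eif2ak2, the kinase PKR that stops translation on viral RNA, had changes of 0.06 and 0.45. Of the dim genes, Rsad2 was at the authors' lowest value on all arrays but 1 of a wild-type control, and Oas1a on all 14.

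Of the sensors, Zbp1, which binds Z-form nucleic acid and starts necroptosis, fell in jnk1-/- lungs. Its levels were 3.14, 5.07, 4.78 and 4.83 after ventilation, against 6.78, 5.73 and 5.97 in controls. This was a 3.27-fold fall (log2 change −1.71, standard error 0.43, adjusted p = 0.0241), and it did not pass without control replicate 1 (−1.40, adjusted p = 0.100). Ventilated replicate 1 was at the authors' lowest value. In wild-type lungs Zbp1 had 6.64, 6.05, 6.92 and 6.54 after ventilation, against 6.64, 6.80 and 6.35 in controls, with full overlap (log2 change −0.06, standard error 0.43, adjusted p = 0.956).

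The RNA helicases Ddx58 (RIG-I) and Ifih1 (MDA5), which recognize viral RNA in the cytosol, did not pass. In jnk1-/- lungs their log2 changes were −0.26 (standard error 0.18, adjusted p = 0.396) and −0.29 (standard error 0.19, adjusted p = 0.386). In wild-type lungs both lay below every control, with 9.27 to 9.44 after ventilation against 9.5 to 10.2 in controls for Ddx58, and 9.09 to 9.28 against 9.65 to 9.87 for Ifih1. Their changes there, −0.51 (standard error 0.18, adjusted p = 0.142) and −0.57 (standard error 0.19, adjusted p = 0.125), were not past the threshold.

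The chemokines Cxcl9, Cxcl10 and Cxcl11 share the receptor CXCR3 of activated T cells. Cxcl9, the member most dependent on interferon gamma, had −0.65, 3.91, 2.93 and 2.87 in ventilated jnk1-/- lungs, against 9.11, 5.37 and 5.16 in jnk1-/- controls. The groups did not overlap, and 3 of the 4 ventilated arrays were at the authors' lowest value. Cxcl9 fell, with a log2 change of −4.28 (standard error 1.11, adjusted p = 0.0280), or −2.95 in the authors' values (adjusted p = 0.0226). Without control replicate 1, the highest array, the change was −3.0 and did not pass (adjusted p = 0.107), nor did it with fast cyclic loess (adjusted p = 0.0589) or with no floor (adjusted p = 0.108). In wild-type lungs Cxcl9 had 3.11, 4.08, 4.01 and 2.35 after ventilation, against 5.76, 4.56 and 4.95 in controls, again without overlap (log2 change −1.70, standard error 1.11, adjusted p = 0.433).

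Cxcl10 had 3.91, 4.36, 4.61 and 5.01 in ventilated jnk1-/- lungs, against 7.21, 4.50 and 4.45 in their controls. Only control replicate 1 stood clear of the ventilated arrays (log2 change −0.91, standard error 0.66, adjusted p = 0.426). In wild-type lungs it had 4.14, 6.24, 5.12 and 5.34, against 4.41, 4.24 and 5.36 in controls (0.54, standard error 0.66, adjusted p = 0.703). Cxcl11 was at the authors' lowest value on 13 of 14 arrays. Of the T and NK cell markers, 5 of 15 fell in the same jnk1-/- lungs.

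Of 6 GTPases induced mainly by interferon gamma, 1 passed. Ifi47 had 9.12, 9.43, 9.30 and 9.20 in ventilated wild-type lungs, against 10.39, 10.67 and 10.06 in wild-type controls, a 2.17-fold fall (log2 change −1.12, standard error 0.25, adjusted p = 0.0329). In jnk1-/- lungs it had 9.14, 9.37, 8.43 and 9.02, against 10.24, 9.63 and 9.58 in controls (log2 change −0.83, standard error 0.25, adjusted p = 0.0511). The groups did not overlap in either genotype. The wild-type call was lost without any 1 of the 7 wild-type arrays, with log2 changes of −1.27 to −0.97 and adjusted p-values of 0.0507 to 0.125. In the authors' values Ifi47 passed in both genotypes. Its changes there were −0.82 in jnk1-/- lungs (adjusted p = 0.0401 from limma) and −1.17 in wild-type lungs (adjusted p = 0.0181).

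The guanylate-binding protein Gbp3, which coats the vacuoles of pathogens, had 5.18, 5.25, 5.76 and 5.33 in ventilated wild-type lungs, against 7.26, 6.56 and 6.65 in controls. Its change there was −1.44 (standard error 0.42, adjusted p = 0.0821), and in jnk1-/- lungs −0.63 (standard error 0.42, adjusted p = 0.378). In wild-type lungs it passed in the authors' values (−1.71, adjusted p = 0.0348), without dim probes, with only the arrays compared in the fit and with array weights. Iigp1 and Irgm2, immunity-related GTPases of the same defence, also lay below every wild-type control after ventilation, with changes of −1.12 and −0.69 (adjusted p = 0.371 and 0.336). Their changes in jnk1-/- lungs were 0.29 and 0.38 (adjusted p = 0.835 and 0.588). Igtp and Irgm1 overlapped between groups in both genotypes, with changes between −0.39 and 0.09.

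Tap1 and Tap2 form the pump that moves peptides to class I molecules. In jnk1-/- lungs Tap1 had 3.81, 4.29, 2.99 and 2.86 after ventilation, against 5.55, 5.21 and 4.66 in controls, and Tap2 had 7.88, 8.22, 7.92 and 8.08, against 9.05, 8.71 and 8.37. Neither overlapped, and neither passed (log2 changes −1.65 and −0.68, adjusted p = 0.0834 and 0.0715). In the authors' values both passed (adjusted p = 0.0177 and 0.0381). In wild-type lungs the changes were −1.03 and −0.34 (adjusted p = 0.347 and 0.446), and the groups overlapped.

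**Figure D3:**
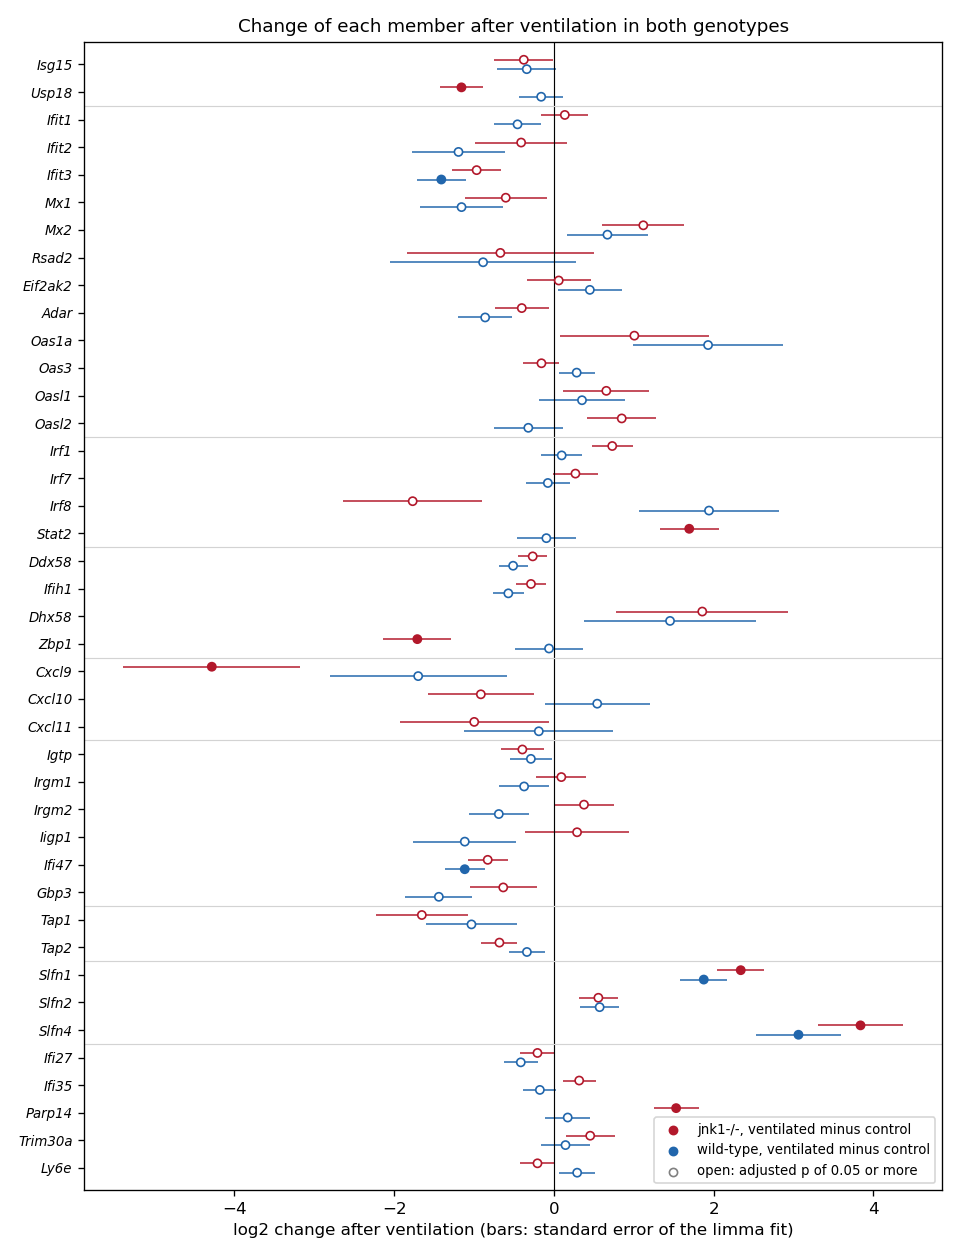
Log2 change after ventilation (horizontal axis) with the standard error of the limma fit, for each of the 41 genes in jnk1-/- and wild-type lungs. Filled points passed an adjusted p of 0.05: 7 in jnk1-/- lungs and 4 in wild-type lungs. Slfn1 and Slfn4 are filled for both genotypes.

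Parp14, which adds ADP-ribose to proteins, was read by 3 probes whose values differed in direction. On the brightest probe it had 7.49, 6.93, 6.93 and 7.78 in ventilated jnk1-/- lungs, against 5.36 to 6.20 in their controls, a 2.89-fold rise (log2 change 1.53, standard error 0.28, adjusted p = 0.00594). In wild-type lungs it had 7.37 to 8.09, against 7.30 to 7.83 in controls (0.17, standard error 0.28, adjusted p = 0.791). In jnk1-/- lungs the second probe had a change of −0.49 (standard error 0.20, adjusted p = 0.126), and the third of 0.74 (standard error 0.41, adjusted p = 0.286). With the 3 probes averaged the change was 0.59 (adjusted p = 0.139), so the rise was found on the brightest probe alone.

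Ifi35, Trim30a, Ifi27 and Ly6e, induced genes of other or less defined roles, had changes between −0.41 and 0.45 in the 2 ventilation comparisons, with adjusted p-values of at least 0.308. Ifi27 and Ly6e were well above the lowest value on every array, at 11.16 to 12.24 and 11.37 to 12.66.

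The comparison of control lungs asked how the genotypes differ before ventilation. In limma 0 of the 41 genes were higher in jnk1-/- controls (3 at an unadjusted p under 0.05, and 0 with the methods' t-test), against 2.31% of all genes, and 1 was lower (2.44%, against 1.47%). This was the brightest probe of Parp14, with 6.20, 5.36 and 5.69 in jnk1-/- controls, against 7.35, 7.83 and 7.30 in wild-type controls, 3.35-fold lower (log2 difference −1.74, standard error 0.30, adjusted p = 0.0110). It did not pass without wild-type control replicate 2 (−1.57, adjusted p = 0.0525). The other probes of Parp14 had differences of opposite sign: the second was at 7.31 to 7.80, against 6.58 to 6.84 (0.78, standard error 0.21, adjusted p = 0.0608), and the third at 6.90 to 8.35, against 4.85 to 5.63, 5.10-fold higher (2.35, standard error 0.44, adjusted p = 0.0150). With the 3 probes averaged the difference was 0.46, of opposite sign (adjusted p = 0.325).

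**Figure D4:**
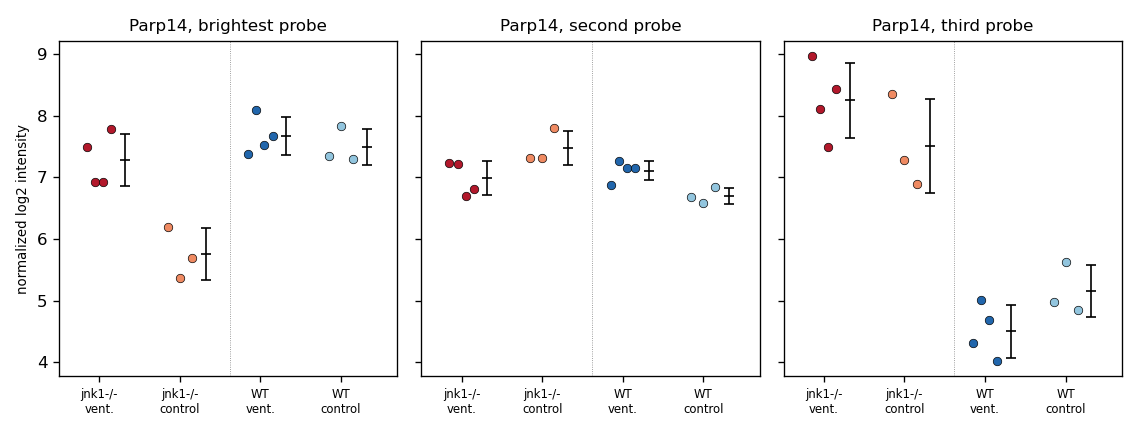
Normalized log2 intensity of the 3 probes of Parp14 on each array of the 4 groups (points), with the mean and SD of each group (bars). The brightest probe is lowest in jnk1-/- controls, the second is highest there, and the third is at 6.90 or above on every jnk1-/- array and at 5.63 or below on every wild-type array.

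Irf8 had the next lowest p between the controls, with the levels given above (log2 difference 3.38, standard error 0.93, adjusted p = 0.0658). Without wild-type control replicate 1 it passed (4.73, adjusted p = 0.00163). The wild-type controls left in that fit (−0.65 and 1.35) were both at the authors' lowest value, so this difference has no measured size. In the authors' values, with all arrays, the difference was 1.19 (adjusted p = 0.113). The 41 genes had a median difference of −0.28, against 0.12 for all genes. All jnk1-/- controls lay below all wild-type controls for 8 genes (19.5%, against 11.7% of all genes) and above for 3 (7.32%, against 16.9%). The 8 were Adar, Ddx58, Ifih1, Ifit1, Ifit3, Parp14, Slfn4 and Stat2, and the 3 were Cxcl11, Irf8 and Ly6e. Slfn4 and Cxcl11 were at the authors' lowest value on all control arrays, so these have no measured order. The jnk1-/- controls are also the arrays with the muscle and squamous genes.

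The comparison of ventilated lungs asked how the genotypes differ after ventilation. In limma 0 of 41 genes were higher in jnk1-/- lungs (1 at an unadjusted p under 0.05, and 0 with the methods' t-test), against 0.345% of all genes, and 1 was lower (2.44%, against 0.366%). Zbp1 had 3.14, 5.07, 4.78 and 4.83 in ventilated jnk1-/- lungs, against 6.64, 6.05, 6.92 and 6.54 in ventilated wild-type lungs, 4.24-fold lower without overlap (log2 difference −2.08, standard error 0.40, adjusted p = 0.0404). The call was lost without any 1 of the 4 ventilated wild-type arrays or ventilated jnk1-/- replicate 4 (log2 differences of −2.25 to −1.96, adjusted p-values of 0.0534 to 0.131). Stat2 had the next lowest p, with a difference of 1.24 (standard error 0.34, adjusted p = 0.178), and passed without ventilated jnk1-/- replicate 3 (1.56, adjusted p = 0.0290). The genotypes did not overlap for 3 genes: Usp18 and Zbp1 were lower (4.88%, against 3.1% of all genes) and Ifi27 higher (2.44%, against 4.5%) in jnk1-/- lungs. The third probe of Parp14, not the one that stood for the gene, was 13.4-fold higher in ventilated jnk1-/- lungs (7.49 to 8.96, against 4.02 to 5.01 in ventilated wild-type lungs, log2 difference 3.74, standard error 0.38, adjusted p = 0.000531). The median difference of the 41 genes was −0.05, against 0.02 for all genes.

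Whether the ventilation effect itself differed between genotypes was tested as an interaction, the change in jnk1-/- lungs minus that in wild-type lungs. None of the 41 genes passed in limma, against 0.115% of all genes in the higher and 0.251% in the lower direction, and 5 had an unadjusted p under 0.05. The lowest were those of Stat2 (1.79, standard error 0.52, unadjusted p = 0.00527, adjusted p = 0.189) and Parp14 (1.36, standard error 0.40, unadjusted p = 0.00545, adjusted p = 0.190). Irf8, Zbp1 and Usp18 followed, with −3.71, −1.65 and −1.0 (adjusted p = 0.235, 0.273 and 0.293). The median of the 41 genes was 0.30, against −0.11 for all genes. Thus the calls of Stat2, Parp14, Usp18, Zbp1 and Cxcl9 in jnk1-/- lungs alone were not shown to be differences between genotypes. Nor were those of Ifit3 and Ifi47 in wild-type lungs alone, and in the authors' values Ifi47 passed in both genotypes. For Slfn1 the interaction was 0.46, with a 95% interval of −0.44 to 1.37.

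Other genes of the pathway were read from 3 fixed lists. Of 48 other interferon-induced genes measured, 2 rose and 10 fell after ventilation in jnk1-/- lungs, and 2 rose and 3 fell in wild-type lungs. Of all genes 7.21% rose and 6.02% fell in jnk1-/- lungs, and 2.41% rose and 1.46% fell in wild-type lungs. The median change of the list was −0.29 in jnk1-/- lungs, against −0.06 for all genes, and −0.16 in wild-type lungs, against 0.08. The guanylate-binding protein Gbp4 fell in both, by 1.86 (standard error 0.26, adjusted p = 0.00136) in jnk1-/- lungs and by 2.00 (standard error 0.26, adjusted p = 0.00257) in wild-type lungs. So did Psmb9, a subunit of the immunoproteasome that cuts peptides for class I molecules, by 2.32 (standard error 0.27, adjusted p = 0.000494) and by 1.29 (standard error 0.27, adjusted p = 0.0250). The other immunoproteasome subunits Psmb8 and Psmb10 fell in jnk1-/- lungs, by 1.20 (adjusted p = 0.00520) and 1.21 (adjusted p = 0.00324). Their changes in wild-type lungs were −0.46 (adjusted p = 0.258) and −0.69 (adjusted p = 0.0760). Named after their values were seen, the other genes that passed in wild-type lungs were Ifitm2 and Daxx, which rose, and Tnfsf10, which fell. Between controls Oas1b was lower in jnk1-/- lungs (−1.70, adjusted p = 0.0202), and between ventilated genotypes and in the interaction none passed.

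Of 20 measured interferons, receptors and signalling genes, Ifngr1, a chain of the interferon gamma receptor, rose in jnk1-/- lungs by 0.94 (adjusted p = 0.0182). Ptpn6, a phosphatase that restrains the receptors, was higher in jnk1-/- than in wild-type controls (2.23, adjusted p = 0.0170). Of the interferon genes themselves, Ifnb1 was at the authors' lowest value on 12, Ifng on 13 and Ifnz on 12 of 14 arrays, Ifna9 was there on 1 array and Ifna4 and Ifna7 on 0. Ifna11 passed in wild-type lungs and between controls on the normalized arrays, but was at that value on all 14, so no level is given. Of 17 sensors and inducers of interferon, Myd88, the adaptor of most Toll-like receptors, rose by 1.32 in jnk1-/- lungs (adjusted p = 0.00337) and by 1.29 in wild-type lungs (adjusted p = 0.00944). The kinase Tbk1 and the DNA-sensing adaptor Sting1 rose in jnk1-/- lungs, by 0.96 (adjusted p = 0.0131) and 0.92 (adjusted p = 0.0331). The remaining genes of these 2 lists did not pass in either ventilation comparison.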

How the data were processed

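For every array the authors deposited log2 intensities of 19621 probes without scaling between arrays (lowest value −6.86), and for the series a table of log2 values that they had normalized between arrays. No quality filter was applied, since flags were not among the columns used here. The deposited log2 intensities were normalized here by cyclic loess (each pair of arrays, span 0.7, 3 passes, lowest values left out of the curves), and then floored at the 1st percentile (−0.65). The 4 groups and 5 contrasts were fitted with lmFit and eBayes of limma 3.58.1 under R 4.3.3, in place of the separate tests of the methods. This was chosen because groups of 3 or 4 arrays leave Welch's t-test few degrees of freedom. Steps were tested on simulated data. Arrays were treated as separate samples, and their number limits the precision.

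Probes were named through GEO's platform annotation: 15353 name 1 gene, 91 several and 4177 none here. Genes and lists were chosen with earlier results of these data known. All 41 genes may be named, with full statistics for those that passed and the 2 with the lowest p per comparison. Other genes come from 3 pathway lists and 8 marker lists. The plan allowed up to 4 names per list by adjusted p, but more are named from the interferon-induced list and from the interferon and receptor list. Alternatives changed the normalization (quantile, fast cyclic loess, the authors' values), the test, the groups fitted, dim probes, the floor, the replicate block, array weights, each array in turn, control arrays and the probes of a gene. Promoter windows came from RefSeq. Figures were drawn in Python 3.11.15.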

Additional observations from a re-analysis of the deposited data

Results flagged for a closer look

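In a group of 4 arrays, a value was singled out when its gap to the nearest other array exceeded Dixon's 95% limit. Of 82 such groups 3 were singled out, and chance alone gives about 1 in 20. Zbp1 on ventilated jnk1-/- replicate 1 was 3.14, whereas the other 3 arrays lay between 4.78 and 5.07. Ifit1 on ventilated wild-type replicate 1 was 6.75, below 7.11 to 7.15 on the others. Rsad2 on the same array was −0.65, below 2.47 to 2.93, but all 4 values are at the authors' lowest value.

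For Irf8 and Oasl2 all 4 ventilated arrays of one genotype moved away from the mean of their controls in one direction, and all 4 of the other genotype in the opposite one. Irf8 was lower on the jnk1-/- arrays (by 1.05 to 2.44) and higher on the wild-type arrays (by 1.5 to 2.49), and the interaction was −3.71 (standard error 1.23, adjusted p = 0.235 from limma). Of the 3 wild-type controls of Irf8, 2 were at the authors' lowest value, and in the authors' values the wild-type change was −0.000917 and the interaction −1.32. Oasl2 was higher on the jnk1-/- arrays (by 0.41 to 1.28) and lower on the wild-type arrays (by 0.11 to 0.46), and the interaction was 1.17 (standard error 0.61, adjusted p = 0.439). Neither interaction passed.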

How the results depend on the processing

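Of 516 values under an alternative, 401 kept their direction and their side of the threshold, or moved by less than the spread, and 1 value past the threshold changed sign: the Parp14 difference between controls became 0.46 with the probes averaged. The number of genes past the threshold in the ventilation of jnk1-/- lungs (7) became 11 in the authors' values and without dim probes, 12 with array weights, 3 with close control arrays averaged, 2 with only the arrays compared in the fit and 1 with the methods' t-test, and lay between 4 and 11 when 1 array was left out. In the ventilation of wild-type lungs (4) it became 7 with array weights, 2 with the control arrays averaged, 2 with the replicate block, and 0 with the methods' t-test and, chosen after the data were seen, without wild-type control replicates 2 and 3, and lay between 2 and 3 when 1 array was left out. Between controls (1) it became 2 without dim probes and with array weights, and 0 with the methods' t-test, only the arrays compared, the control arrays averaged, the probes averaged and without wild-type control replicates 2 and 3 together, with 0 to 3 when 1 array was left out. Between ventilated lungs (1) it became 0 with quantile normalization, fast cyclic loess, the methods' t-test, only the arrays compared, no floor, the replicate block and the control arrays averaged, with 0 to 2 when 1 array was left out. For the interaction it was 0, and 0 to 1 when 1 array was left out. The 1 was Irf8 without wild-type control replicate 1, where the wild-type controls left were at the authors' lowest value. At an unadjusted p under 0.05 the methods' t-test counted 9, 10, 3 and 4 genes in these comparisons of groups, and limma 14, 11, 10, 3 and 5. No share of all genes is given at this unadjusted threshold. Neither these counts nor those at the same threshold in the Results can therefore show whether the set differs from other genes. At the adjusted threshold, calls across all probes also moved with the processing. For ventilation of jnk1-/- lungs 2955 probes passed in the authors' values and 2335 with quantile normalization, against 2374 in the fit used here. For wild-type lungs these numbers were 1138 and 555, against 673. Outside the changes of normalization no count of all probes is given. A gain or loss of calls there cannot be told apart from a shift across all genes.

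The median change of the 41 genes became 0 in the authors' values for ventilation of jnk1-/- lungs (−0.24 to −0.06 when 1 array was left out) and −0.0886 with array weights between controls (−0.44 to −0.21). Without 1 array it was −0.28 to −0.15 for ventilation of wild-type lungs, −0.10 to 0.07 between ventilated lungs (above 0 without wild-type ventilated replicate 3, and 0.017 with quantile normalization, against −0.05) and 0.15 to 0.47 for the interaction. The median of all probes lay at 0.11, 0.12 and −0.13 for ventilation in wild-type lungs, between controls and in the interaction, and at 0 in the authors' values. The median of 0 for the 41 genes in jnk1-/- lungs is the value of Oas1a and Rsad2. Both were at the authors' lowest value on all jnk1-/- arrays, so it is no measured change. The cause of the other shifts was not tested, apart from the fewer arrays in some fits.

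Replicate numbers did not pair the arrays: deviations of same-numbered arrays correlated between −0.05 and 0.09, and other pairs between −0.12 and 0.13. With the replicate block the calls of Ifit3, Ifi47, Zbp1 and Cxcl9 were lost.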

Other observations

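Neighbouring genes of the set could be set side by side. Ifit2 and Ifit3 lie next to each other on chromosome 19, with log2 changes of −0.41 and −0.97 after ventilation in jnk1-/- lungs and of −1.19 and −1.41 in wild-type lungs. Ifit2 was at the authors' lowest value on 2 of 4 ventilated jnk1-/- and 3 of 4 ventilated wild-type arrays, and its change in the authors' values was −0.27 in jnk1-/- lungs and −0.41 in wild-type lungs. Igtp and Irgm2, adjacent on chromosome 11, had −0.39 and 0.38 in jnk1-/- lungs and −0.29 and −0.69 in wild-type lungs. Oasl2 and Oasl1, adjacent on chromosome 5, had 0.85 and 0.66 in jnk1-/- lungs and −0.32 and 0.35 in wild-type lungs. Of these genes Ifit3 passed the test, in wild-type lungs.

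Second probes of Oas3 and Eif2ak2 were not part of the comparisons. The second probe of Oas3 changed by 0.29 in jnk1-/- lungs (adjusted p = 0.632) and 0.76 in wild-type lungs (adjusted p = 0.208), and that of Eif2ak2 by −1.18 and −1.20 (adjusted p = 0.572 and 0.610). On the brightest probe Eif2ak2 had 0.06 and 0.45, of opposite sign, and the second probe was at the authors' lowest value on 3 of 4 ventilated and 1 of 3 control arrays of each genotype.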
